A study of Mus musculus with 20 samples.

Results

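The tripartite motif (TRIM) genes of mouse ovary were described across 4 groups of libraries. They were taken as the genes whose symbol is Trim followed by a digit. Their expected counts had to sum to at least 200 over the 20 libraries. The rule uses no group label, but a scarce gene can reach the sum through the groups where it is high. Trim30b, Trim30c, Trim34b and Trim72, with 279.27, 529, 235.85 and 376 counts, had most of their level in the 2 groups given an interferon particle. Their calls below are not independent of the rule. Of 68 symbols of this form among the 20960 genes of the table, 52 reached the minimum, and all 52 also passed the low-count filter of the test. Trim71 and Trim66 lay just inside with 210 counts each, and Trim67, Trim80 and Trim43c lay just outside with 189, 186 and 158.9. Pml, Mid1, Mid2, Mefv and Cmya5 belong to the same family under other symbols and are given apart.

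Each group held 5 libraries of polyadenylated RNA. The ptLNPIFN-Y and LNPIFN-Y groups are labelled as ovarian cancer treated with the particle of that name, Model as ovarian cancer with no treatment named, and Control carries no treatment. In the series text the prefix pt marks targeting of a lipid nanoparticle by a peptide, the cargo is mRNA for interferon-γ (IFN-γ), and the tumours grow from the mouse line ID8Luci, placed in the ovarian bursa of C57BL/6 mice after the bursa was expanded with another particle, ptLNPFSHα&β. ID8 derives from ovarian surface epithelium, so the model rests on 1 cell line. The labels give no age, dose, day or animal for any library and do not describe LNPIFN-Y further, so p-values measure the spread between these libraries, which may be technical. The series text lists a sham control, which the labels do not tie to Control. No group received an empty particle. Effects of the particle and of its cargo cannot be told apart.

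TRIM proteins share a RING finger, B-box zinc fingers and a coiled coil, and most act as E3 ubiquitin ligases. The domain at the far end sets the target, a PRYSPRY domain in the largest class, which includes the antiviral restriction factor TRIM5 of primates. Many PRYSPRY members are transcribed in response to interferons in leukocytes and other cells. Other classes work in chromatin, at centrosomes, in neurons or in the early embryo, and a few lack the RING finger.

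Total counts ranged from 16496793 to 17218043 per library, and all libraries carry the same batch label. Ovarian markers were present, with 10 granulosa cell genes summing to 759 to 3036 CPM (counts scaled to a common library size) in ptLNPIFN-Y, 981 to 2501 in LNPIFN-Y, 1916 to 3195 in Model and 2241 to 3788 in Control. Leukocyte markers moved with the particles. All 9 measured T cell genes and all 5 pan-leukocyte genes were higher than in Model in both particle groups, as were 4 of 10 macrophage genes in ptLNPIFN-Y and 6 of 10 in LNPIFN-Y. The pan-leukocyte genes summed to 360.4 to 797 CPM in ptLNPIFN-Y, 317 to 924 in LNPIFN-Y, 96.6 to 251 in Model and 86.4 to 142 in Control. The T cell genes summed to 57.2 to 165 CPM in ptLNPIFN-Y, 42.7 to 103 in LNPIFN-Y, 12.9 to 26.8 in Model and 8.41 to 12.04 in Control. The macrophage genes summed to 1269 to 2542 CPM in ptLNPIFN-Y, 1103 to 3425 in LNPIFN-Y, 325 to 1160.3 in Model and 367 to 637 in Control. Of 4 B cell genes, 3 were higher in ptLNPIFN-Y and 0 in LNPIFN-Y, and they summed to 7.60 to 125 CPM in ptLNPIFN-Y, 12.5 to 26.6 in LNPIFN-Y, 2.94 to 16.5 in Model and 2.75 to 5.85 in Control. The high sums were those of ptLNPIFN-Y 4 and 5, at 125 and 59.0 CPM. The other ptLNPIFN-Y libraries, at 7.60 to 18.6 CPM, overlapped Model. Between the 2 particles 0 of the 4 B cell genes passed the test. None of the markers in this paragraph was at 0 in any group.

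The comparison of each particle group with Model asks how the TRIM genes differ when the tumour model also received a particle. In ptLNPIFN-Y, 12 of 52 TRIM genes were higher than in Model and 0 were lower; over all 15723 genes tested, 6.05% were higher and 0.948% lower. In LNPIFN-Y, 11 of 52 were higher and 0 lower, against 5.25% higher and 0.566% lower of all genes. A call needed an adjusted p under 0.05 in edgeR's quasi-likelihood test, adjusted by Benjamini and Hochberg over all genes. The 12 genes were Trim30a, Trim30b, Trim30c, Trim30d, Trim34a, Trim12a, Trim12c, Trim5, Trim21, Trim25, Trim56 and Trim14, and the 11 were the same without Trim30b. Trim30b and Trim30c reached the count minimum mainly through the particle groups. Log2 fold changes of the 12 lay between 0.72 and 2.78 in ptLNPIFN-Y and between 0.76 and 2.64 in LNPIFN-Y. Over all 52 genes the median log2 fold change was 0.09 in ptLNPIFN-Y and -0.01 in LNPIFN-Y, beside -0.05 and -0.03 over all genes. At an unadjusted p under 0.05, 4 members were lower in each particle group, beside 1519 of all 15723 genes in ptLNPIFN-Y and 1308 in LNPIFN-Y, so the members' share lies near that of all genes. DESeq2 called 1 member lower in ptLNPIFN-Y, Trim9, and 0 in LNPIFN-Y. With edgeR, 1 member was lower in ptLNPIFN-Y without Model 1 (Trim39) and without Model 2, Model 3 or ptLNPIFN-Y 1 (Trim9), and 1 in LNPIFN-Y without Model 1 (Trim39). Every particle library lay above every Model library for 11 members in ptLNPIFN-Y and 10 in LNPIFN-Y, beside 4.83% and 4.33% of all genes. Fewer cells of a type and less RNA per cell cannot be told apart in these bulk libraries. The T cell and pan-leukocyte markers rose beside these genes, as did some macrophage markers in both groups. B cell markers rose in ptLNPIFN-Y, mainly in replicates 4 and 5. The part of these markers in the result was not tested.

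**Figure D1:**
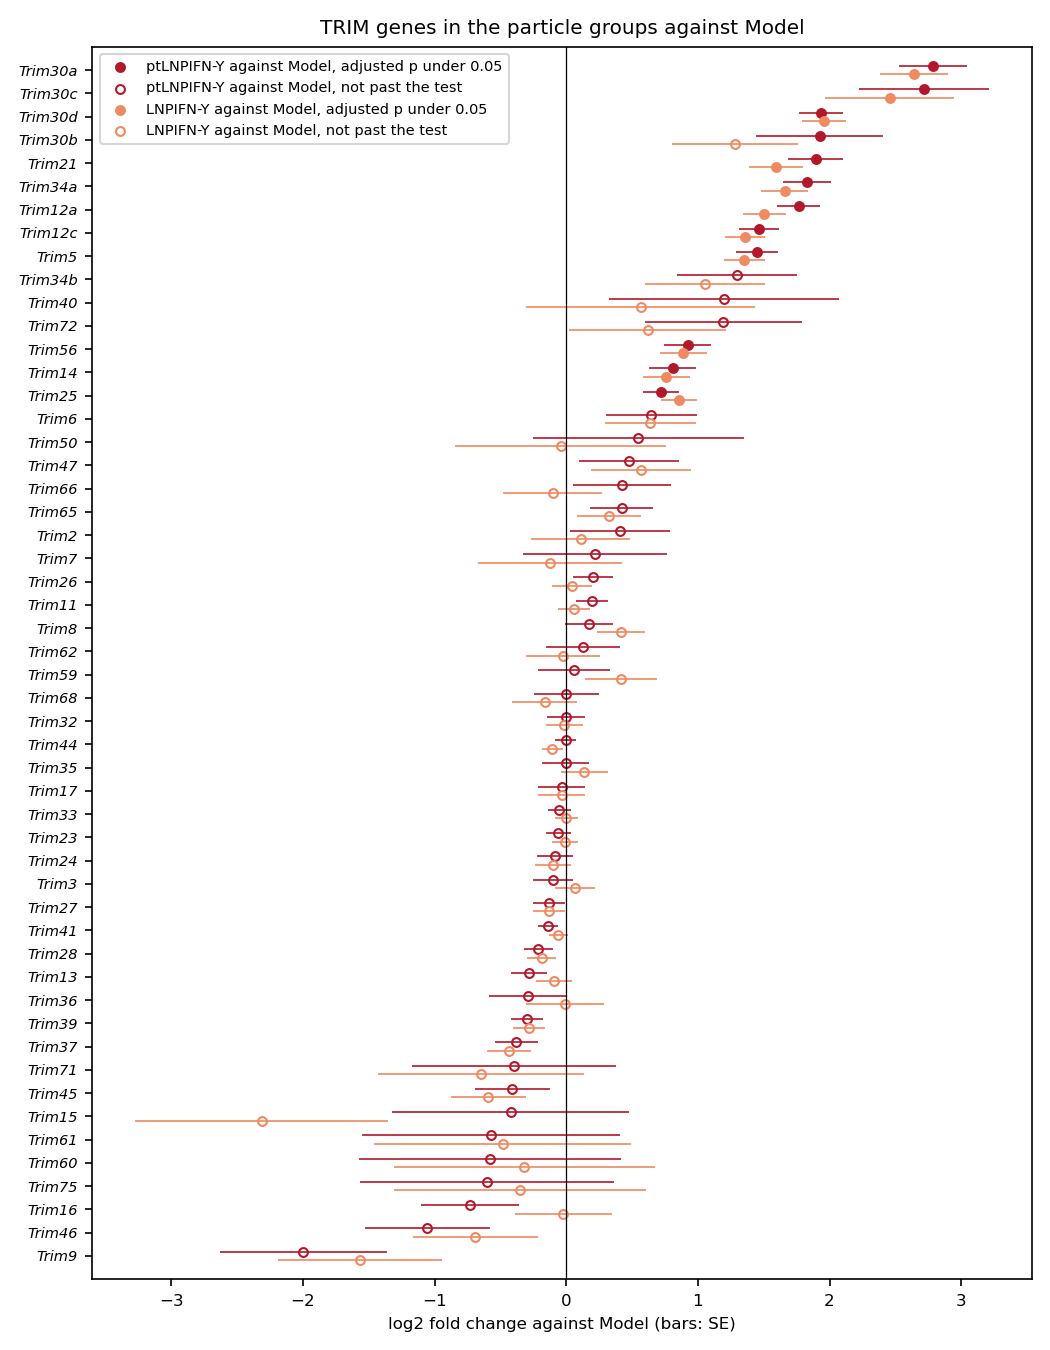
Log2 fold change against Model of each of the 52 TRIM genes (1 row per gene) in ptLNPIFN-Y and LNPIFN-Y, with bars for the standard error and filled points for an adjusted p under 0.05. The filled points all lie above 0, from Trim30a at 2.78 and 2.64 down to Trim25 and Trim14, and most other genes lie around 0.

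Among the called TRIM genes, Trim30a, Trim30c and Trim30d had the largest fold changes in both particle groups. Trim30a (Entrez ID 20128, chr7:104409025-104465193 on GRCm38.p6), described in mouse macrophages as a brake on NF-κB through TAB2 and TAB3, had 119, 308, 198, 278 and 192 CPM in ptLNPIFN-Y and 254, 179, 151, 175 and 232 CPM in LNPIFN-Y. It had 31.6, 41.7, 40.2, 25.2 and 20.4 CPM in Model and 22.6, 22.5, 17.2, 30.4 and 24.6 CPM in Control. Every particle library lay above every Model and Control library. The log2 fold change against Model was 2.78 ± 0.26 (SE) in ptLNPIFN-Y and 2.64 ± 0.26 in LNPIFN-Y, with edgeR adjusted p of 6.51e-07 and 1.45e-06. Per kb of gene length, Trim30a averaged 54.88 ± 18.8 CPM in ptLNPIFN-Y, 49.7 ± 10.8 in LNPIFN-Y, 7.964 ± 2.32 in Model and 5.869 ± 1.19 in Control (SD, n = 5). By this level it held rank 2 among the 52 in ptLNPIFN-Y and rank 3 in LNPIFN-Y, against rank 22 in Model and rank 25 in Control. In ptLNPIFN-Y its neighbours in that order, Trim28 at 64.14 ± 10.1 and Trim35 at 54.26 ± 8.85, did not differ from it beyond their spread.

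Trim30d, its neighbour on the same strand, had 48.01, 99.1, 62.4, 76.8 and 59.7 CPM in ptLNPIFN-Y and 73.1, 75.7, 62.4, 71.2 and 68.7 CPM in LNPIFN-Y. It had 20.8, 21.04, 16.1, 15.2 and 17.3 CPM in Model and 16.8, 15.5, 14.3, 22.3 and 18.2 CPM in Control. Every particle library lay above every Model and Control library. The log2 fold changes were 1.93 ± 0.17 (SE) in ptLNPIFN-Y and 1.96 ± 0.17 in LNPIFN-Y, with edgeR adjusted p of 2.84e-07 and 3.74e-07. Trim30c was far scarcer, with 2.34, 4.64, 1.63, 2.09 and 4.96 CPM in ptLNPIFN-Y and 4.28, 2.79, 1.31, 1.82 and 2.84 CPM in LNPIFN-Y. It had 0.739, 0.581, 0.304, 0.268 and 0.453 CPM in Model and 0.0545, 0.425, 0.275, 0.591 and 0.459 CPM in Control. All particle libraries lay above all others here too, and log2 fold changes were 2.72 ± 0.49 (SE, adjusted p 0.00133) in ptLNPIFN-Y and 2.46 ± 0.49 (adjusted p 0.00343) in LNPIFN-Y.

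Trim30b was the 1 gene called in ptLNPIFN-Y and not in LNPIFN-Y. It had 1.11, 1.76, 1.21, 2.59 and 1.94 CPM in ptLNPIFN-Y and 1.56, 1.16, 0.342, 0.730 and 1.72 CPM in LNPIFN-Y. It had 0.398, 0.639, 0.486, 0.322 and 0.396 CPM in Model and 0.0545, 0.364, 0.110, 0.0538 and 0.287 CPM in Control. The ptLNPIFN-Y libraries all lay above Model, while LNPIFN-Y replicate 3 lay inside the Model range. Its log2 fold change was 1.92 ± 0.48 (SE, edgeR adjusted p 0.0172) in ptLNPIFN-Y and 1.28 ± 0.48 (adjusted p 0.143) in LNPIFN-Y. The difference between the particles was itself 0.64 ± 0.46 (adjusted p 1), so Trim30b is not shown to differ between the particles. The ptLNPIFN-Y call was lost without Model 4, Model 5 or ptLNPIFN-Y 4, with adjusted p of 0.0592, 0.0503 and 0.0525. The gene lies wholly inside Gm38525 on the same strand, sharing 3249 bases, and Gm38525, named here after its values were seen, gave 2.24 ± 0.46 (adjusted p 0.00391) in ptLNPIFN-Y and 1.48 ± 0.46 (0.0692) in LNPIFN-Y. How the reads divide between the 2 genes is uncertain.

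**Figure D2:**
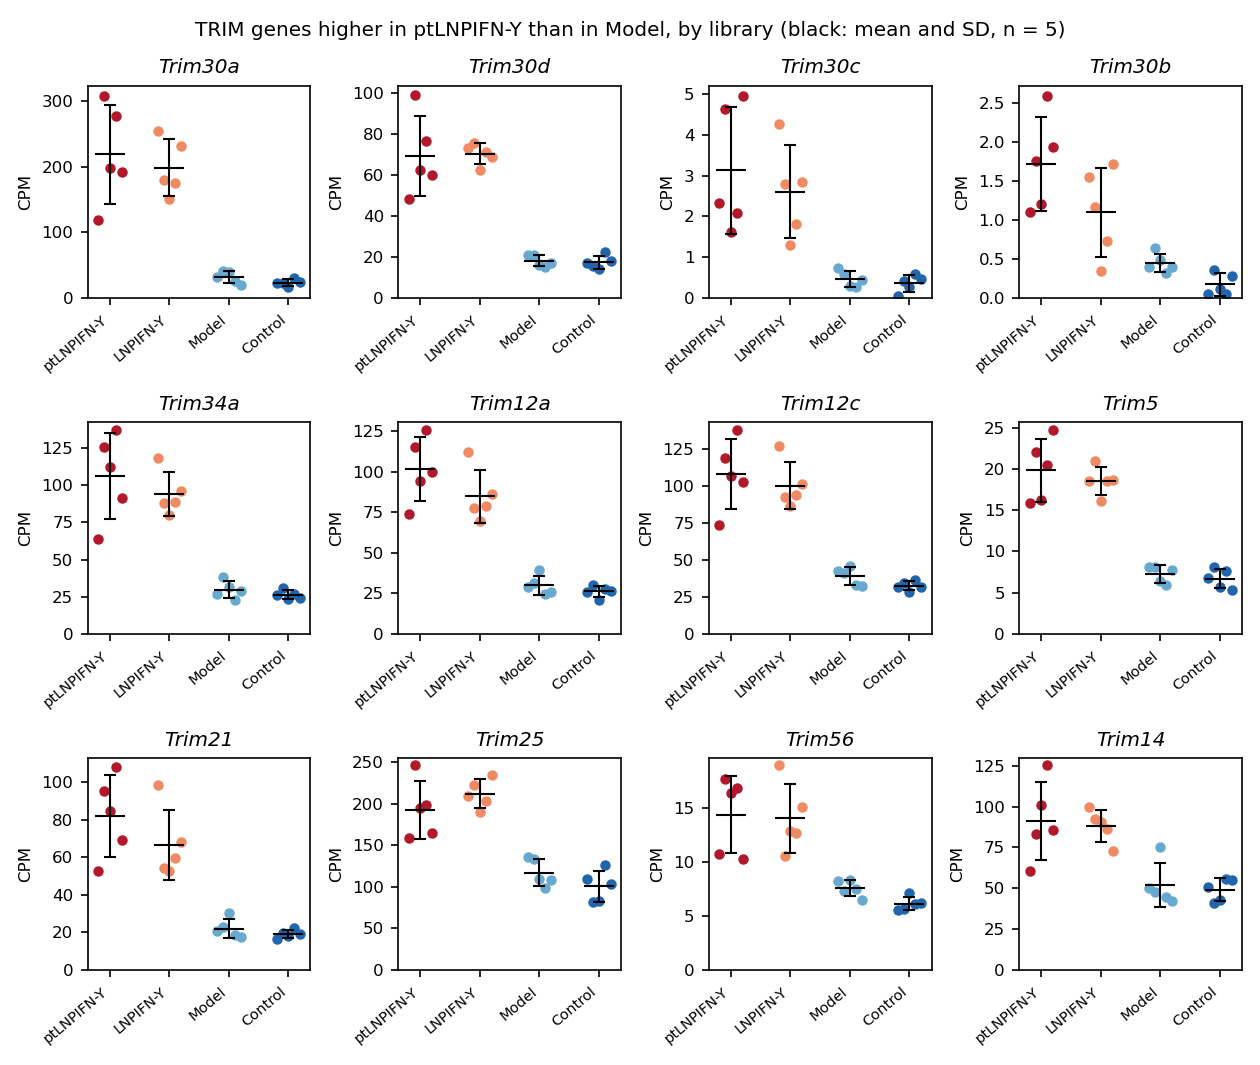
CPM by library for the 12 TRIM genes higher in ptLNPIFN-Y than in Model, 5 points per group, with the mean and SD in black and a linear axis from 0. In 11 of the 12 panels every ptLNPIFN-Y point lies above every Model point, the exception being Trim14, and Model and Control overlap in every panel.

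Trim34a (Entrez ID 94094, chr7:104244448-104262244), a PRYSPRY gene next to Trim5, had 64.2, 125, 112, 137 and 91.1 CPM in ptLNPIFN-Y and 118, 88.2, 79.8, 89.1 and 96.1 CPM in LNPIFN-Y. It had 27.1, 38.6, 31.8, 23.1 and 28.8 CPM in Model and 25.9, 31.1, 23.5, 27.2 and 24.1 CPM in Control. The particle libraries all lay above the rest, with log2 fold changes against Model of 1.83 ± 0.18 (SE) in ptLNPIFN-Y and 1.66 ± 0.18 in LNPIFN-Y (edgeR adjusted p 1.46e-06 and 5.22e-06). Trim12c had 73.7, 119, 107, 138 and 103 CPM in ptLNPIFN-Y and 127, 93.03, 86.5, 94.2 and 101 CPM in LNPIFN-Y. It had 42.6, 41.6, 46.1, 33.00 and 32.8 CPM in Model and 31.5, 34.3, 28.4, 36.4 and 31.9 CPM in Control. Trim12a, Trim12c and Trim5 are mouse counterparts of the primate restriction factor TRIM5. None of the 3 overlapped between particle and Model libraries. Log2 fold changes in ptLNPIFN-Y were 1.77 ± 0.16 for Trim12a, 1.46 ± 0.15 for Trim12c and 1.45 ± 0.16 for Trim5. In LNPIFN-Y they were 1.51 ± 0.16, 1.36 ± 0.15 and 1.35 ± 0.16 in the same order (SE; largest edgeR adjusted p 1.11e-05). Trim5 was the scarcest of them, at 15.9 to 24.7 CPM in ptLNPIFN-Y, 16.2 to 20.96 in LNPIFN-Y, 5.90 to 8.14 in Model and 5.34 to 8.14 in Control.

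These genes stand together. From Trim6 to Trim30d, chr7:104218795-104507853 on GRCm38.p6, the table lists 11 genes in 289 kb, of which 10 are TRIM genes and the other is Gm38525. Of the 10, 8 were higher in ptLNPIFN-Y and 7 in LNPIFN-Y, all 10 fold changes were above 0 in both, and the medians were 1.80 and 1.43. Trim30b, Trim30c and Trim34b are among the 10 mainly through their counts in the particle groups. The 42 members elsewhere had 4 higher in each group, with medians of -0.02 and -0.03. The 2 cluster genes called in neither particle group were Trim6 at 0.64 ± 0.35 (SE, adjusted p 0.278) in ptLNPIFN-Y and 0.64 ± 0.35 (0.338) in LNPIFN-Y, and Trim34b at 1.30 ± 0.46 (0.102) and 1.05 ± 0.46 (0.223). Estimated counts can be shared between genes with the same sequence, and 7 of the 10 cluster genes share some. Of all 100-base stretches in the annotated transcripts of a gene, the share found in another TRIM gene was 30.5% for Trim34b, 21% for Trim34a, 9.73% for Trim5, 8.03% for Trim12c, 4.57% for Trim30d, 4.41% for Trim30a and 2.62% for Trim12a, and it was 0% for Trim6, Trim30b and Trim30c. Values of Trim34a and Trim34b are the least certain on this count.

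**Figure D3:**
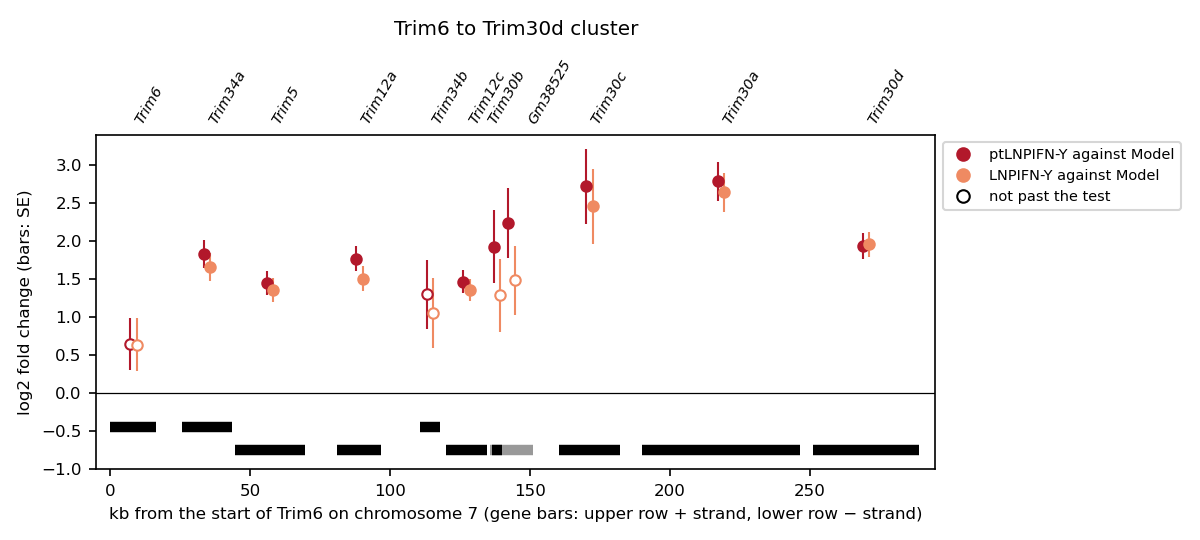
Log2 fold change against Model (vertical axis, bars for the standard error) of the 11 genes between Trim6 and Trim30d, placed by distance in kb from the start of Trim6, for ptLNPIFN-Y and LNPIFN-Y. Black bars mark the TRIM genes and the grey bar Gm38525, and every point lies above 0, the highest being Trim30a and Trim30c.

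The start regions of the cluster genes were read because their members moved together. RefSeq's promoter table for GRCm38.p6, which gives 250 bases before to 50 after a gene's start, held 41 of the 52 members. The windows were searched on both strands for GAAA followed after any 2 bases by GAAA, the core of the element bound by interferon regulatory factors. The motif was present in 7 of the 11 called genes with an entry (63.6%), in 2 of the 30 other members (6.67%, Trim2 and Trim26) and in 3.99% of all 27025 promoters. These matches are not independent. The Trim30a and Trim30d stretches below are nearly the same, as are those of Trim5 and Trim12c. The 50-base stretch of Trim12a, not shown, equals the start of the Trim5 stretch. The share among the called genes therefore counts similar neighbouring genes more than once. A second motif, not named here, was searched in the same windows and was present in 1 of the 11 (9.09%), in 3 of the 30 (10.0%) and in 9.55% of all promoters. The stretches shown, up to 70 bases, carry the motif in capitals and are read 5′ to 3′ on the gene's strand, where the motif appears as TTTC, any 2 bases and TTTC except in Trim21. They lie at chr7:104465190-104465259 for Trim30a, chr7:104507851-104507920 for Trim30d, chr7:104400876-104400945 for Trim30c, chr7:104288116-104288185 for Trim5, chr7:104353339-104353408 for Trim12c, chr7:104244437-104244486 for Trim34a, chr7:102565453-102565499 for Trim21 and chr17:36836956-36837025 for Trim26. Trim34a is read on the plus strand, as is Trim26, and the rest on the minus strand. In Trim21 and Trim26 2 overlapping matches are marked. In Trim30c the capitals mark the stretch that aligns with the motif of Trim30a and is no match.
Trim30a: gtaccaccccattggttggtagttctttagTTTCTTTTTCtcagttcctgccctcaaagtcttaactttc
Trim30d: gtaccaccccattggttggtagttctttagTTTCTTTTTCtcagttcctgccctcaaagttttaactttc
Trim30c: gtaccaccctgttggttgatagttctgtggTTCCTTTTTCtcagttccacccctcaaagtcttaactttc
Trim5: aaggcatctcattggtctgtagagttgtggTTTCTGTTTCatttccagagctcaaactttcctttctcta
Trim12c: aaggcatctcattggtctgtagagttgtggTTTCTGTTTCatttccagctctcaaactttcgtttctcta
Trim34a: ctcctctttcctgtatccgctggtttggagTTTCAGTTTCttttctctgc
Trim21: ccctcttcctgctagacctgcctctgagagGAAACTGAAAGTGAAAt
Trim26: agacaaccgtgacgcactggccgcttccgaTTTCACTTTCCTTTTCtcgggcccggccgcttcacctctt
The Trim30c stretch equals that of Trim30a at 62 of 70 bases, and Trim30c was higher than Model in both particle groups. Trim26 holds 2 matches and was not called. A match is a description of these letters and not a binding site.

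Of the called genes outside the cluster, Trim21 (Entrez ID 20821, chr7:102557920-102565482), the cytosolic receptor for antibody Fc that marks coated viruses for degradation, had 52.7, 95.4, 84.9, 108 and 69.1 CPM in ptLNPIFN-Y and 98.4, 54.1, 52.8, 59.4 and 68.3 CPM in LNPIFN-Y. It had 20.6, 23.1, 30.4, 18.8 and 17.5 CPM in Model and 16.3, 19.6, 18.1, 22.5 and 19.1 CPM in Control. Every particle library lay above every Model and Control library, and the log2 fold changes were 1.89 ± 0.21 (SE) in ptLNPIFN-Y and 1.59 ± 0.21 in LNPIFN-Y, with edgeR adjusted p of 5.28e-06 and 4.62e-05. Trim25 (Entrez ID 217069, chr11:88999403-89020294), which ubiquitinates the RNA sensor RIG-I, had 159, 247, 195, 198 and 165 CPM in ptLNPIFN-Y and 209, 223, 190.1, 203 and 235 CPM in LNPIFN-Y. It had 136, 134, 110.1, 98.4 and 108 CPM in Model and 109.9, 81.3, 83.2, 126 and 104 CPM in Control. All particle libraries lay above all others, though the change was smaller, 0.72 ± 0.14 (SE, adjusted p 0.00208) in ptLNPIFN-Y and 0.85 ± 0.14 (0.000506) in LNPIFN-Y.

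Trim56 (Entrez ID 384309, chr5:137111286-137116462), an antiviral ligase of the class without a further domain, had 10.8, 17.7, 16.3, 16.8 and 10.3 CPM in ptLNPIFN-Y and 18.9, 10.5, 12.9, 12.7 and 15.1 CPM in LNPIFN-Y. It had 8.25, 7.32, 8.32, 7.46 and 6.51 CPM in Model and 5.56, 5.65, 7.09, 6.13 and 6.20 CPM in Control. Particle and Model libraries did not overlap, and log2 fold changes were 0.92 ± 0.18 (SE, edgeR adjusted p 0.00226) in ptLNPIFN-Y and 0.89 ± 0.18 (0.00366) in LNPIFN-Y. Trim14 (Entrez ID 74735, chr4:46505072-46536150), a member without a RING finger that acts as an adaptor of the mitochondrial signalling protein MAVS, had 60.5, 83.5, 101, 125 and 85.9 CPM in ptLNPIFN-Y and 99.7, 92.5, 90.4, 86.01 and 73.1 CPM in LNPIFN-Y. It had 50.2, 47.8, 75.5, 44.8 and 42.4 CPM in Model and 50.7, 40.8, 42.8, 55.8 and 55.2 CPM in Control. Model replicate 3 lay above ptLNPIFN-Y replicate 1 and LNPIFN-Y replicate 5, so the groups overlapped. The log2 fold change of Trim14 was 0.81 ± 0.18 (SE, adjusted p 0.00657) in ptLNPIFN-Y and 0.76 ± 0.18 (0.0121) in LNPIFN-Y. The ptLNPIFN-Y call was lost when the 2 groups were fitted alone (adjusted p 0.072), and the LNPIFN-Y call without Model 4 (0.0554) or Model 5 (0.056).

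By class, a list of PRYSPRY genes held 29 members. Of these, 10 were higher in ptLNPIFN-Y and 9 in LNPIFN-Y, with medians of 0.48 and 0.32. The chromosome 7 cluster gave 8 and 7 of those calls. By the Pfam protein domains given with the genes, 6 of 23 members with a SPRY domain were higher in each group. Their medians were 0.22 and 0.04. Of the 29 members for which no SPRY domain was given, 6 and 5 were higher, with medians of -0.005 and -0.01. Among these 29 are Trim21, Trim5, Trim12a, Trim30b and Trim30c, called genes of the PRYSPRY list with no Pfam domain given at all. A missing entry is no lack of the domain, so the Pfam split cannot compare the classes. Of the 14 members on a list of interferon-induced TRIM genes of the literature, 12 were higher in ptLNPIFN-Y and 11 in LNPIFN-Y, with medians of 1.62 and 1.35. The list holds every gene called against Model. It was chosen with earlier results of these data known, so this overlap is no independent check. The members on it that passed in neither group were Trim34b and Trim26. Trim26 (Entrez ID 22670, chr17:36837123-36859398), reported to promote turnover of nuclear IRF3, had 135, 143, 128, 131 and 94.7 CPM in ptLNPIFN-Y and 106, 131, 119.8, 127 and 80.2 CPM in LNPIFN-Y. It had 106, 91.8, 85.9, 109 and 155 CPM in Model and 109, 96.7, 108, 101 and 109 CPM in Control. The groups overlapped, Model replicate 5 being the highest of all, and the log2 fold change was 0.20 ± 0.15 (SE, edgeR adjusted p 0.424) in ptLNPIFN-Y and 0.04 ± 0.15 (0.906) in LNPIFN-Y. Pml, the scaffold of nuclear bodies and a TRIM gene by structure, was the 1 of 5 genes under other symbols that passed the test. It was at 0.94 ± 0.13 (9.68e-05) in ptLNPIFN-Y and 0.95 ± 0.13 (0.000106) in LNPIFN-Y. Of the 5 fold changes, 4 were above 0 in each particle group. The largest, 1.09 and 1.54, were not those of Pml and did not pass.

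No member of the chromatin class passed the test in either particle group, 0 of 4 in each direction. Of all genes 6.05% and 5.25% were higher and 0.948% and 0.566% lower, so 0 of 4 says little about the class. Trim28 (Entrez ID 21849, chr7:13024152-13031032), the corepressor KAP1 of KRAB zinc finger proteins, was the most abundant TRIM gene per kb in every group. It had 235, 214, 213, 226 and 152 CPM in ptLNPIFN-Y and 192, 237, 223, 227 and 178 CPM in LNPIFN-Y. It had 251, 234, 233, 261 and 226 CPM in Model and 259, 206, 256, 255 and 254 CPM in Control. The groups overlapped, and the log2 fold change was -0.21 ± 0.11 (SE, edgeR adjusted p 0.261) in ptLNPIFN-Y and -0.19 ± 0.11 (0.373) in LNPIFN-Y. Trim24 (Entrez ID 21848, chr6:37870811-37968445), a cofactor of nuclear receptors, had 77.8, 65.9, 73.1, 61.8 and 57.96 CPM in ptLNPIFN-Y and 52.9, 66.1, 71.1, 66.1 and 76.8 CPM in LNPIFN-Y. It had 66.6, 65.3, 69.1, 64.9 and 91.98 CPM in Model and 84.3, 93.6, 64.7, 73.9 and 58.03 CPM in Control. The groups overlapped, with log2 fold changes of -0.09 ± 0.14 and -0.10 ± 0.14 (adjusted p 0.708 and 0.722). Trim33 (Entrez ID 94093, chr3:103279293-103358770), a regulator of SMAD4, had 82.8, 83.7, 97.8, 107 and 69.2 CPM in ptLNPIFN-Y and 85.5, 95.8, 94.1, 91.2 and 90.7 CPM in LNPIFN-Y. It had 96.2, 82.7, 96.3, 90.3 and 91.9 CPM in Model and 89.8, 86.6, 90.7, 91.2 and 91.3 CPM in Control. The groups overlapped here too, at -0.05 ± 0.09 in ptLNPIFN-Y and 0.00 ± 0.09 in LNPIFN-Y (adjusted p 0.718 and 0.998). The NHL-repeat class, Trim2, Trim3, Trim32 and Trim71, likewise had 0 of 4 called in either direction, with the same limit of few genes. Of all members not past the test, 17 in each comparison had an SE under 0.2, and their log2 fold changes lay between -0.38 and 0.20 in ptLNPIFN-Y and between -0.43 and 0.42 in LNPIFN-Y.

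Among genes that work with the TRIM ligases, the interferon and sensing lists held most of the calls. Of 12 ligands, receptors and factors of interferon signalling, 7 were higher in each particle group and 0 lower. Stat2 was at 2.36 ± 0.15 (SE) in ptLNPIFN-Y and 2.41 ± 0.15 in LNPIFN-Y, and Irf9, its partner, at 1.18 ± 0.10 and 1.28 ± 0.10. Irf1 and Ifng were also among the 7. Whether Ifng reads came from cells or from the cargo was not tested. Of 16 RNA and DNA sensing partners, 5 were higher in ptLNPIFN-Y and 6 in LNPIFN-Y. Ddx58, which encodes RIG-I, the target of Trim25, was at 1.47 ± 0.27 (0.0015) and 1.73 ± 0.27 (0.000394), Ifih1, the sensor MDA5, at 1.91 ± 0.17 and 1.88 ± 0.17, and Irf7 at 3.61 ± 0.30 and 3.69 ± 0.30. Mavs, the adaptor of RIG-I and MDA5, was at 0.56 ± 0.32 (0.301) and 0.09 ± 0.32 (0.901). Of 13 ubiquitin-conjugating enzymes, 1 passed the test as higher in both groups, Ube2l6, which passes on the ubiquitin-like protein ISG15. It was at 2.83 ± 0.34 (1.56e-05) in ptLNPIFN-Y and 2.64 ± 0.34 (3.72e-05) in LNPIFN-Y. The enzymes that charge most RING ligases, Ube2d1, Ube2d2a, Ube2d3 and Ube2n, lay between -0.20 and 0.13. The lowest of the 13 log2 fold changes was -2.75 in ptLNPIFN-Y and -1.40 in LNPIFN-Y. In each particle group 1 of the 13 lay wholly below Model, and 0 passed the test as lower. The 1 of 13 lies near the 6.05% and 5.25% of all genes called higher, as do the counts of the next list. Of 13 chromatin partners of Trim28, Trim24 and Trim33, Morc3 was higher and Hdac2 lower in ptLNPIFN-Y, at 0.45 ± 0.13 (0.0466) and -0.34 ± 0.10 (0.0477), and Chd3 was lower in LNPIFN-Y at -0.47 ± 0.13 (0.0332).

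The comparison of ptLNPIFN-Y with LNPIFN-Y asks whether the 2 particles differ. No TRIM gene passed it: 0 were higher and 0 lower in edgeR's quasi-likelihood test and in DESeq2, 0 of 52 had an unadjusted p under 0.05, and 0% of all 15723 genes passed in edgeR. The median log2 difference of the 52 was 0.04. The 25 members with an SE under 0.2 lay between -0.24 and 0.26. Among the 12 called genes the difference ranged from -0.14 for Trim25 to 0.64 for Trim30b. Summed over the 52 genes, TRIM transcripts came to 2764 ± 405 CPM in ptLNPIFN-Y and 2704 ± 145 CPM in LNPIFN-Y, with 2124 ± 165 CPM in Model and 2005 ± 47.7 CPM in Control (SD, n = 5). The spread was widest in ptLNPIFN-Y, and replicate 1 held the lowest ptLNPIFN-Y value of 10 of the 12 called genes. That library also held the lowest pan-leukocyte (360.4 CPM), T cell (57.2 CPM) and macrophage (1269 CPM) sums of its group. The lowest B cell sum was in ptLNPIFN-Y 3, at 7.60 CPM. A link between these markers and the TRIM values was not tested.

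The comparison of Model with Control asks whether the tumour model without an IFN-γ particle went with a change. By the series text the bursa was expanded with ptLNPFSHα&β before the cells were placed. The labels do not say whether Control had this step, so its effect and that of the tumour cannot be told apart. Here too 0 members were higher and 0 lower in edgeR and in DESeq2, and 0% of all 15723 genes passed in edgeR. At an unadjusted p under 0.05 edgeR gave 4 of 52, all higher in Model: Trim15 at 2.03 ± 0.95 (SE), Trim72 at 1.51 ± 0.63, Trim30b at 1.34 ± 0.52 and Trim6 at 0.85 ± 0.35, each with an adjusted p of 0.936. Of all 15723 genes 772 had such a p, 665 of them higher in Model, so the number and the direction are near those of all genes. All 10 cluster genes and all 14 members on the list of interferon-induced genes had fold changes above 0, with medians of 0.32 and 0.21, beside 0.12 over the 52 members and 0.01 over all genes. No member separated the 5 Model libraries from the 5 Control libraries, as 0.795% of all genes did. The 25 members with an SE under 0.2 lay between -0.29 and 0.31.

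Set against Control, 16 of 52 members were higher and 4 lower in ptLNPIFN-Y, beside 12.2% higher and 5.39% lower of all genes. In LNPIFN-Y 15 were higher and 1 lower, beside 10.8% and 3.28%. Both particle groups share their Control libraries in these comparisons. The 16 were the cluster genes with Trim21, Trim25, Trim56, Trim14, Trim72 and Trim2, and the 15 lacked Trim2. All 10 cluster genes were higher in both, with log2 fold changes from 1.50 to 3.27 in ptLNPIFN-Y and from 1.47 to 3.08 in LNPIFN-Y. With the oviduct and follicle covariates described for Trim37, the calls of Trim6 (adjusted p 0.0602) and Trim34b (0.129) were lost in ptLNPIFN-Y, and those of Trim6 (0.106), Trim34b (0.243) and Trim30b (0.0984) in LNPIFN-Y. Trim6, which in human cells makes free ubiquitin chains for the kinase IKKε, was among them, at 5.41 to 17.1 CPM in ptLNPIFN-Y, 7.74 to 14.1 in LNPIFN-Y, 4.07 to 11.4 in Model and 3.11 to 4.34 in Control. Both particle groups lay wholly above Control and overlapped Model. Against Control it was at 1.50 ± 0.35 (SE, edgeR adjusted p 0.00742) in ptLNPIFN-Y and 1.49 ± 0.35 (0.00861) in LNPIFN-Y. Trim34b was at 1.73 ± 0.47 (0.0172) in ptLNPIFN-Y and 1.49 ± 0.47 (0.0414) in LNPIFN-Y. Its ptLNPIFN-Y call was lost without Control 3 (0.0506) or ptLNPIFN-Y 4 (0.0544). The LNPIFN-Y call was lost without Control 1, 3, 4 or 5 or LNPIFN-Y 1 or 4, with adjusted p between 0.058 and 0.106.

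Trim72 (Entrez ID 434246, chr7:128003462-128011393), known as MG53 in membrane repair of muscle, had 0.676, 1.57, 2.35, 3.29 and 2.35 CPM in ptLNPIFN-Y and 2.85, 0.757, 1.59, 0.669 and 0.992 CPM in LNPIFN-Y. It had 0.227, 0.755, 2.49, 0.376 and 0.622 CPM in Model and 0.272, 0.668, 0.165, 0.215 and 0.230 CPM in Control. Particle and Control libraries did not overlap, though only narrowly, and Model replicate 3 lay among the particle libraries. Against Control the log2 fold change was 2.70 ± 0.64 (SE, edgeR adjusted p 0.00798) in ptLNPIFN-Y and 2.13 ± 0.64 (0.0332) in LNPIFN-Y. The LNPIFN-Y call was lost without LNPIFN-Y 1 or any Control library but replicate 2, with adjusted p between 0.0664 and 0.106. The 9 striated muscle markers summed to 6.27 to 12.4 CPM in ptLNPIFN-Y, 4.56 to 11.5 in LNPIFN-Y, 6.55 to 21.4 in Model and 6.92 to 9.03 in Control, with Myh4 at 0 in ptLNPIFN-Y and Control. Trim2, a ligase for neurofilament light chain, was at 1.17 ± 0.38 (0.0434) in ptLNPIFN-Y, with 52.3 to 193 CPM there, 41.8 to 146 in Model and 38.3 to 79.3 in Control. The groups overlapped, and the call was lost without any of Control 1, 3, 4 and 5 or ptLNPIFN-Y 2, 3, 4 and 5, with adjusted p between 0.0542 and 0.13.

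**Figure D4:**
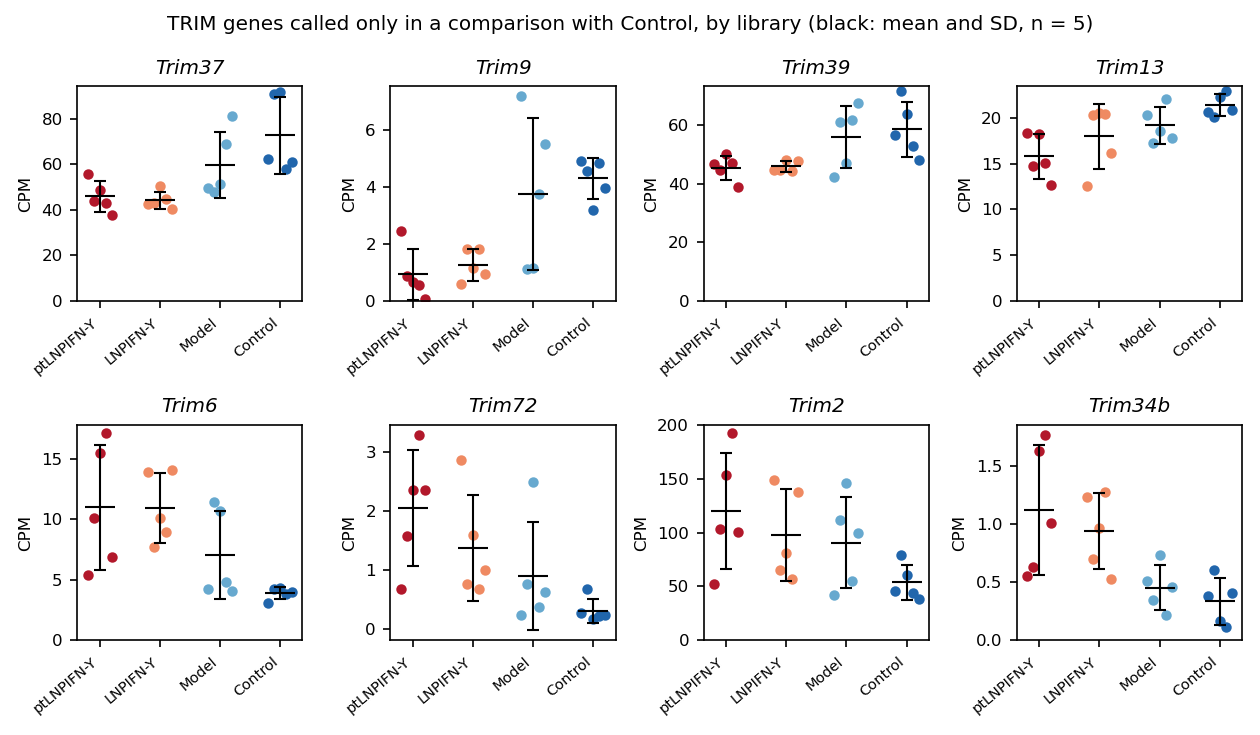
CPM by library for the 8 TRIM genes called in a comparison with Control and in neither comparison with Model, 5 points per group, with the mean and SD in black. The upper row holds the 4 genes lower in ptLNPIFN-Y than in Control, and in all 8 panels the Model mean lies between those of the particle groups and that of Control.

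The genes lower than in Control were Trim37 in both particle groups, and Trim9, Trim13 and Trim39 in ptLNPIFN-Y. Trim37 (Entrez ID 68729, chr11:87126790-87250874), which limits the assembly of centrosomes, had 55.6, 44.1, 48.8, 43.2 and 37.8 CPM in ptLNPIFN-Y and 42.5, 43.1, 50.3, 44.6 and 40.3 CPM in LNPIFN-Y. It had 49.6, 47.6, 51.4, 68.9 and 81.1 CPM in Model and 62.2, 90.7, 91.7, 58.1 and 61.1 CPM in Control. All particle libraries lay below all Control libraries. The log2 fold change was -0.67 ± 0.16 (SE, edgeR adjusted p 0.0104) in ptLNPIFN-Y and -0.72 ± 0.16 (0.00674) in LNPIFN-Y. With the oviduct and follicle marker means as covariates it was -0.35 (adjusted p 0.375) in ptLNPIFN-Y and -0.41 (0.332) in LNPIFN-Y. The 10 oviduct markers summed to 10.7 to 4043 CPM in ptLNPIFN-Y, 16.7 to 4276 in LNPIFN-Y, 13.7 to 9425 in Model and 1171 to 15609 in Control, and none was at 0 in a group. Ppm1e overlaps Trim37 on the opposite strand and strandedness is not stated. Ppm1e, named after its values were seen, was at -1.57 ± 0.72 (0.13) in ptLNPIFN-Y and -0.47 ± 0.71 (0.652) in LNPIFN-Y.

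Trim9 (Entrez ID 94090, chr12:70244533-70347869), a ligase of neurons that shapes axon growth, had 2.46, 0.878, 0.663, 0.569 and 0.0670 CPM in ptLNPIFN-Y and 0.584, 1.80, 1.14, 1.82 and 0.926 CPM in LNPIFN-Y. It had 7.17, 1.10, 1.15, 3.76 and 5.49 CPM in Model and 4.90, 4.56, 3.19, 4.84 and 3.96 CPM in Control. All ptLNPIFN-Y and LNPIFN-Y libraries lay below Control, and the Model libraries spread over both ranges. Against Control it was at -2.20 ± 0.64 (SE, edgeR adjusted p 0.0255) in ptLNPIFN-Y and -1.76 ± 0.63 (0.0659) in LNPIFN-Y, and the call was lost without ptLNPIFN-Y 2 (0.053) or 4 (0.0629). The covariates hold oviduct and follicle markers only. The 8 adipocyte markers summed to 705 to 18367 CPM in ptLNPIFN-Y, 979 to 8797 in LNPIFN-Y, 1026 to 2629 in Model and 1196 to 8148 in Control. The 7 smooth muscle markers summed to 141 to 1765 CPM in ptLNPIFN-Y, 886 to 1896 in LNPIFN-Y, 1365 to 5425 in Model and 1853 to 2167 in Control. The part of muscle, fat, oviduct and follicle content in these results was not tested beyond the covariates.

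Trim13 (Entrez ID 66597, chr14:61598226-61610287), a ligase of the endoplasmic reticulum membrane, had 18.3, 14.7, 18.2, 15.05 and 12.7 CPM in ptLNPIFN-Y and 12.6, 20.3, 20.5, 20.4 and 16.2 CPM in LNPIFN-Y. It had 20.3, 17.2, 18.5, 22.1 and 17.8 CPM in Model and 20.6, 20.04, 22.3, 22.96 and 20.9 CPM in Control. The ptLNPIFN-Y libraries lay below Control, at -0.44 ± 0.14 (SE, edgeR adjusted p 0.0368). With the covariates it was -0.24 (adjusted p 0.38). The call was lost without Control 1, 2, 3 or 4 or ptLNPIFN-Y 2, 4 or 5, with adjusted p between 0.0502 and 0.12. Trim13 shares 2831 bases with Kcnrg on the same strand. Trim39 (Entrez ID 79263, chr17:36258872-36272004), a PRYSPRY ligase that inhibits the anaphase-promoting complex, had 46.8, 44.8, 49.97, 46.9 and 39.00 CPM in ptLNPIFN-Y and 44.5, 44.7, 48.2, 44.3 and 47.9 CPM in LNPIFN-Y. It had 42.4, 60.96, 47.2, 61.8 and 67.4 CPM in Model and 56.4, 71.7, 63.6, 52.7 and 48.04 CPM in Control. The groups overlapped, the log2 fold change was -0.36 ± 0.12 (0.049) in ptLNPIFN-Y, and the call was lost without Control 1, 2, 3 or 4 or ptLNPIFN-Y 1, 2, 4 or 5, with adjusted p between 0.0516 and 0.127. With the covariates Trim39 was at -0.11 (adjusted p 0.737). The number of members lower in ptLNPIFN-Y than in Control was 1 without ptLNPIFN-Y 2 or 4, and 2 without ptLNPIFN-Y 5 or Control 1, 2, 3 or 4. In LNPIFN-Y it was 2 without Control 5, with Trim39 added.

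The levels of 4 members ran beside those of oocyte markers. Trim60, Trim61 and Trim75, neighbours on chr8, and Trim71, an RNA-binding ligase of stem cells and the early embryo, had no difference past the test in any comparison. Trim61, the most abundant of them, ranged over 0 to 24.5 CPM in ptLNPIFN-Y, 0.132 to 16.9 in LNPIFN-Y, 4.55 to 23.4 in Model and 8.26 to 23.2 in Control, so the groups overlapped widely. Trim71 had 1.11, 0.501, 0.422, 0.316 and 0 CPM in ptLNPIFN-Y and 0.130, 0.699, 0.398, 0.730 and 0 CPM in LNPIFN-Y. It had 1.02, 0.116, 0.486, 0.858 and 0.622 CPM in Model and 0.654, 0.425, 1.21, 1.34 and 1.03 CPM in Control. The 10 oocyte markers summed to 3.15 CPM in ptLNPIFN-Y 5 and 2.25 CPM in LNPIFN-Y 5, and to between 21.5 and 359 CPM in the other 18 libraries. In those 2 libraries Trim60, Trim75 and Trim71 had 0 counts, which allows up to 3 counts each. ptLNPIFN-Y 1, with the highest oocyte sum of its group at 289.8 CPM, also held its highest Trim60, Trim61, Trim75 and Trim71. Trim60 and Trim61 share 5713 bases on the same strand, so their counts may not be divided cleanly.

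**Figure D5:**
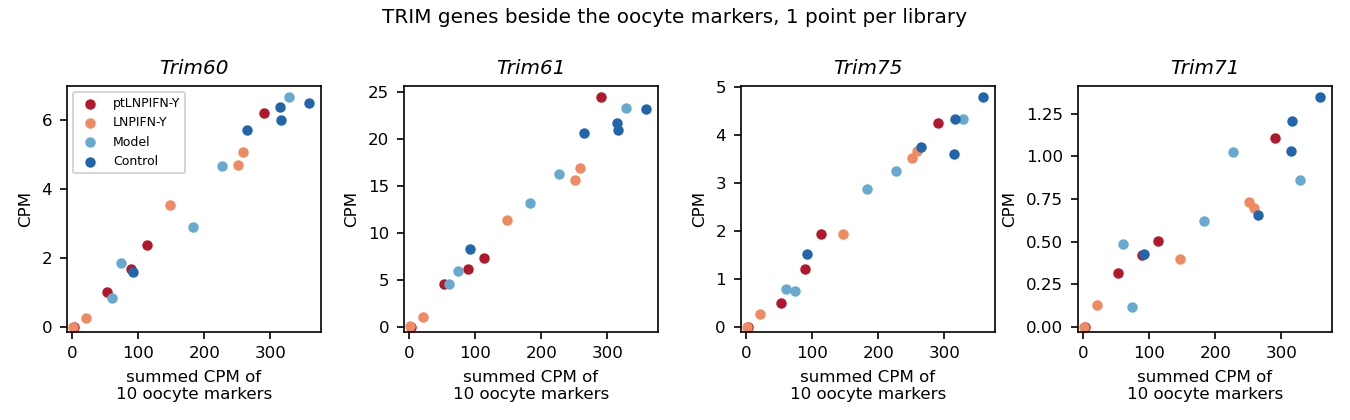
CPM of Trim60, Trim61, Trim75 and Trim71 (vertical axis of each panel) against the summed CPM of 10 oocyte markers (horizontal axis), 1 point per library, coloured by group. The libraries ptLNPIFN-Y 5 and LNPIFN-Y 5 lie at the origin, and the libraries of all 4 groups lie along the same rising band.

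The 16 symbols below the minimum were scarce in every group. Trim29, a gene of squamous and other epithelia without a RING finger, had 0.0615, 0.627, 0.181, 0.190 and 0.268 CPM in ptLNPIFN-Y and 0.519, 0.233, 0.228, 0.0608 and 1.32 CPM in LNPIFN-Y. It had 0.114, 0.174, 0.182, 0.161 and 0.339 CPM in Model and 0, 0.121, 0.0549, 0.108 and 0.172 CPM in Control. Trim63, the muscle ligase MuRF1, had 0.0615, 0.188, 0.121, 0.316 and 0 CPM in ptLNPIFN-Y and 0, 0, 0.171, 0.0608 and 0 CPM in LNPIFN-Y. It had 0.0569, 0.349, 0.121, 0.107 and 0.283 CPM in Model and 0.654, 0.243, 0.165, 0.430 and 0.172 CPM in Control. With 83 and 61 counts over all 20 libraries, these 2 genes did not pass the low-count filter and were not tested.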

How the data were processed

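RNA of 20 mouse ovary libraries was captured with oligo(dT) beads and sequenced on a DNBSEQ platform, per the labels' protocols. The deposited table holds expected counts per gene, 1 column per library, with gene length; the submitters' processing notes name HISAT2, StringTie, RSEM and DESeq2 on GRCm38.p6 without versions or roles, and strandedness is not given in the sources used here. Of the deposited expected counts, 9.85% carry decimals, and all were rounded to whole counts. 1 row was empty and left out.

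One edgeR 4.0.16 quasi-likelihood model (R 4.3.3) covered all 20 libraries, with TMM scaling, filterByExpr at a minimum count of 10 (15723 genes) and Benjamini-Hochberg adjustment over those genes. CPM uses the TMM-scaled library. The step was tested on simulated data. DESeq2 1.42.0 and limma 3.58.1 gave alternatives, as did other scaling, filters, sample sets and covariates. Library pairs within a group had a chi-square per degree of freedom of at least 9.37, so none was a repeat deposit. Same-numbered libraries correlated over 0.1 in 11 of 30 pairs, so numbers were not taken as pairs. Genes given by library were 14 chosen TRIM genes plus up to 5 highest and 5 lowest called per comparison. Of the 14, Trim29 and Trim63 lay below the count minimum and are not members. Members, lists and this rule were chosen with earlier results of these data known. Sequences come from RefSeq's table for GRCm38.p6, and shared stretches from GENCODE transcripts. With 5 libraries a group, precision rests on their spread and, for scarce genes, on depth. Counts of 0 allow up to 3 counts, which covers counting error only.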

Additional observations from a re-analysis of the deposited data

Results flagged for a closer look

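4 values stood apart from the other 4 libraries of their group by Dixon's test, among 80 groups of 20 members tested, where chance gives about 1 in 20. Trim24 was high in Model 5, at 92 CPM against 64.9 to 69.1 CPM in the other Model libraries. Trim26 was low in ptLNPIFN-Y 5, at 94.7 CPM against 128 to 143 CPM. In the same library Trim28 was low, at 152 CPM against 213 to 235 CPM. Trim28 was also low in Control 2, at 206 CPM against 254 to 259 CPM.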

How the results depend on the processing

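Counts of TRIM genes higher than Model stayed within 1.5 times under each of 11 other settings, from 9 to 16 in ptLNPIFN-Y and from 8 to 12 in LNPIFN-Y; without single libraries they were 11 to 14 and 10 to 11. 10 genes were called in both under every setting except a log2 fold change of at least 1, which removed Trim25 and Trim56 of them. Higher than Control were 13 to 21 in ptLNPIFN-Y (14 to 20 without single libraries) and 10 to 20 in LNPIFN-Y (13 to 17). ptLNPIFN-Y against LNPIFN-Y and Model against Control gave 0 in every setting and with each library left out.

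Counts of lower genes were few and moved. Against Model, ptLNPIFN-Y had 1 with DESeq2, with library size alone and with oviduct and follicle covariates, and 3 with limma's voomLmFit; LNPIFN-Y had 2 with voomLmFit; both had 0 to 1 without single libraries. Against Control, ptLNPIFN-Y had 7 with voomLmFit, 1 with the fold minimum and with the covariates, 2 without the libraries that have no Zp3 count, and 1 to 5 without single libraries. Against Control, LNPIFN-Y had 3 with DESeq2 and with the 2 groups fitted alone, 2 with library size alone and with upper-quartile factors, 5 with voomLmFit, 0 with the fold minimum and with the covariates, and 1 to 2 without single libraries. The cause was not tested. The covariates also ended the calls of Trim30b (1.41, adjusted p 0.0879) in ptLNPIFN-Y and Trim14 (0.70, 0.0622) in LNPIFN-Y against Model. Against Control they also ended Trim14 (0.0617) and Trim2 (0.128) in ptLNPIFN-Y and Trim14 (0.09) and Trim72 (0.192) in LNPIFN-Y, beside those given above, and added Trim26 as higher in ptLNPIFN-Y. With voomLmFit Trim28 was called lower than Control in ptLNPIFN-Y (-0.27, 0.0108). The same setting called Trim26 higher than Control in ptLNPIFN-Y (0.33, 0.0219) and in LNPIFN-Y (0.25, 0.0396).

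With library size alone the median of all genes against Model was -0.178 in ptLNPIFN-Y and -0.129 in LNPIFN-Y, and that of the TRIM genes in ptLNPIFN-Y was -0.02; no called gene changed direction in any setting, while genes near 0 that were not called, such as Trim26, Trim24 and Trim33, changed sign in some. The replicate block, on numbers that share only a label, gave 12 higher and 0 lower in ptLNPIFN-Y and 11 and 0 in LNPIFN-Y against Model, 14 and 4 and 13 and 1 against Control, and 0 elsewhere. Against Control it ended the calls of Trim2 (adjusted p 0.0682), Trim34b (0.0514) and Trim39 (0.0748) and added Trim46 as lower in ptLNPIFN-Y, and ended those of Trim34b (0.0862) and Trim72 (0.0639) in LNPIFN-Y. Depth limits Trim30b, Trim30c, Trim34b, Trim72 and Trim9, which have few counts per library.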

Other observations

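A few members stood high in 1 or 2 libraries. Trim15, a PRYSPRY gene, was at 8.38 CPM in ptLNPIFN-Y 3 and 10.5 CPM in Model 2, while the other 18 libraries lay between 0.265 and 1.36 CPM. Its fold changes, 1.89 ± 0.95 for ptLNPIFN-Y against LNPIFN-Y and 2.03 ± 0.95 for Model against Control (SE), each rest on 1 library. Trim16, a member without a RING finger, was at 34.5 CPM in LNPIFN-Y 5 against 5.59 to 19.99 CPM elsewhere. Trim40 ranged over 0.307 to 4.76 CPM in ptLNPIFN-Y, 0.529 to 2.46 in LNPIFN-Y, 0.215 to 3.28 in Model and 0 to 1.31 in Control, and was past the test in no comparison.

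Trim69, on the list of interferon-induced genes but below the count minimum with 112 counts in all, lay at 0.181 to 0.676 CPM in ptLNPIFN-Y, 0.455 to 0.926 in LNPIFN-Y, 0 to 0.304 in Model and 0 to 0.230 in Control. All LNPIFN-Y libraries lay above all Model libraries, and ptLNPIFN-Y 3 lay inside the Model range. Its difference was not tested.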
